A study of Homo sapiens with 6 samples.

Results

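Krüppel-like factors (KLFs) are zinc finger transcription factors, and 10 of them (KLF2, KLF3, KLF4, KLF5, KLF6, KLF7, KLF9, KLF10, KLF11 and KLF13) were followed here in T-24 cells, an adherent epithelial line from a human bladder cancer. They were picked by gene symbol alone, and all 10 were among the 38557 symbols of the deposited tables. Poly(A) RNA was sequenced from 3 samples given the vehicle DMSO and 3 given CCT068127 at 1 µM, both for 48 h. The labels call the DMSO cells WT, list no other genotype for the treated cells than the treatment itself, and describe the samples of each arm as independent. CCT068127 blocks the kinases CDK2 and CDK9, as known from its literature, and the comparison asks which transcripts differ after its use.

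KLFs share the zinc fingers near their C-terminus, with which they bind GC boxes and CACCC elements in promoters, the same elements that the related SP factors bind. What precedes the fingers differs. KLF2, KLF4, KLF5, KLF6 and KLF7 carry activating stretches, KLF3, KLF8 and KLF12 recruit the corepressor CtBP, and KLF9, KLF10, KLF11, KLF13 and KLF16 recruit the corepressor SIN3A. Several KLF transcripts are short-lived and answer quickly to growth factors, TGF-beta, glucocorticoids or flow. In the bladder, KLF5 is known for its part in urothelial maturation, and KLF4 and KLF6 are studied as growth restraints in epithelia.

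DMSO replicates 1 and 2 held 371044040 and 411097626 counts in total, and the other 4 libraries, which set the precision, between 1966742 and 5955296. Each of the 10 KLFs passed the low-count filter that kept 13597 genes. Of 7 epithelial markers, 5 were above 1 TPM (a level per transcript length, scaled to the same sum in each library) in a library of each arm, whereas the E-cadherin gene CDH1 and the P-cadherin gene CDH3 were not. The 4 uroplakin genes, which mark differentiated urothelium, summed to between 1.16 and 2.15 TPM in DMSO and between 1.67 and 3.31 TPM in CCT068127. Summed levels of the epithelial markers ran from 3677 to 4875 TPM in DMSO and from 5281 to 6726 TPM in CCT068127. The 11 markers of fibroblasts, endothelium and leukocytes summed to between 11.0 and 11.5 TPM in DMSO and between 4.71 and 8.99 TPM in CCT068127, with the fibroblast genes DCN and LUM at 0 in every library.

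In DMSO, KLF5 was the most abundant member at 68.5 ± 1.8 TPM (SD, n = 3). KLF10 followed at 48.5 ± 6.87 TPM, and KLF6 (35.1 ± 2.42 TPM) and KLF4 (35 ± 1.37 TPM) came next with overlapping libraries. KLF13, KLF3 and KLF9 formed a group between 17.2 and 18.2 TPM whose libraries also overlapped. KLF7 (5.9 TPM), KLF2 (3.56 TPM) and KLF11 (2.07 TPM) stood lowest. In CCT068127 the order changed. KLF6 led at 86.7 ± 32.2 TPM, with libraries that overlapped those of KLF10 (72.3 ± 18.7 TPM), which in turn overlapped KLF5 (62.2 ± 11.2 TPM). KLF2, ninth in DMSO, moved to the sixth place, and KLF9 moved from the seventh place to the ninth.

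As shares of the summed TPM of the 10 members, KLF6 took 13.9 ± 1.1% in DMSO and 29.5 ± 5.69% in CCT068127. KLF4 took 13.9 ± 0.572% and 5.11 ± 0.34%, KLF13 7.24 ± 0.575% and 2.19 ± 0.34%, and KLF9 6.82 ± 0.27% and 1.46 ± 0.544%. The summed TPM itself lay between 248.6 and 253.6 in DMSO. It was 217.1, 338.4 and 303.1 in CCT068127 replicates 1 to 3, so 1 treated library lay below all DMSO libraries and 2 lay above them. The shares of KLF4, KLF6, KLF9 and KLF13 did not overlap between the arms, while the summed TPM went both ways. Changes in make-up and in size were not measured against each other.

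**Figure D1:**
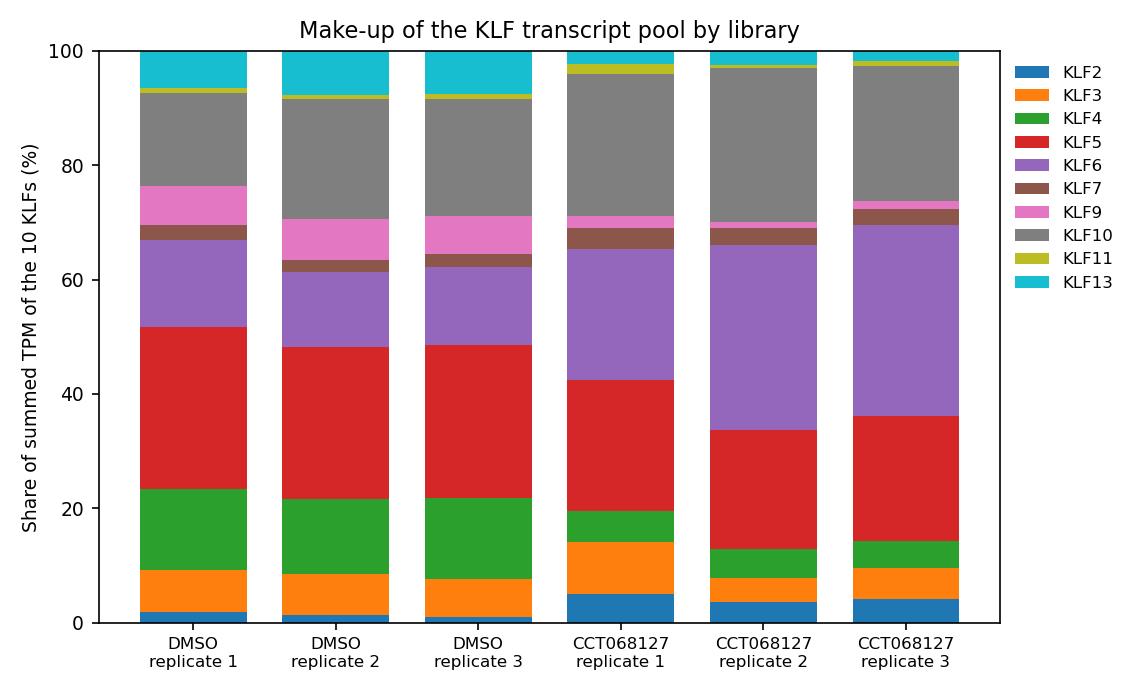
Share of the summed TPM of the 10 KLFs (%, y axis) taken by each member in each of the 6 libraries (x axis). KLF6 takes more of the pool in the 3 CCT068127 libraries, and KLF4, KLF9 and KLF13 take less.

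On CPM (counts relative to the library total, scaled by TMM), 6 KLFs rose and 4 fell with CCT068127, at an adjusted p under 0.05 from edgeR's quasi-likelihood test. Over all 13597 genes 31.9% passed as higher and 32.8% as lower (64.7% in all), beside 60% and 40% of the members. The members were chosen with earlier results of these data known, so these shares were not tested against each other. In bulk RNA, fewer cells of a kind and less RNA per cell cannot be told apart. The CPM of the members did not overlap between the arms in 10 of 10 cases, beside 69.4% of all genes. The median log2 fold change was 0.66 over the members and -0.05 over all genes. In size, KLF2 changed most, and 8.25% of all genes had a larger absolute log2 fold change. For KLF6 that share was 11.5%, for KLF9 13.9%, for KLF13 21.1%, and for KLF5, at the other end, 69.6%.

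On log2(TPM + 1) values 4 members (KLF2, KLF6, KLF7, KLF10) rose and 3 (KLF4, KLF9, KLF13) fell, by limma-trend, where 17.2% of all genes passed as higher and 51.9% as lower. On that scale the median of all genes lay at -0.46, so a value of 0 there is above most genes. The calls of KLF3, KLF5 and KLF11 were not kept on it.

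**Figure D2:**
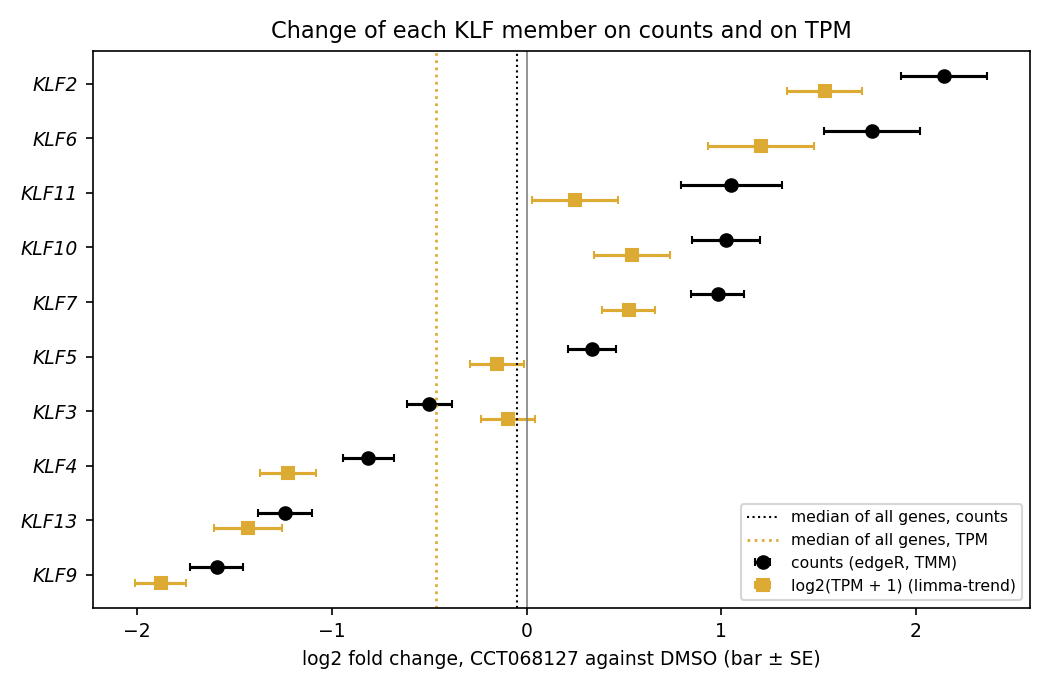
Log2 fold change of each KLF (x axis, bars are ± 1 SE) from counts (black circles) and from log2(TPM + 1) (yellow squares), 3 libraries a group, with the medians of all genes as dotted lines. KLF2 and KLF6 lie furthest right and KLF9 furthest left on both scales, while KLF3 and KLF5 change their order. KLF11 lies right of KLF7 and KLF10 on counts and left of them on log2(TPM + 1).

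Among the activating members, KLF2, a factor known from quiescent T cells and from endothelium under flow, changed most. It stood at 6.34, 4.32 and 3.29 CPM in DMSO replicates 1 to 3 and at 20.6, 22.3 and 23.4 CPM in CCT068127. Every treated library lay above every DMSO library, with 22 counts behind the lowest value. The change was 4.42-fold, a log2 change of 2.14 ± 0.22 (SE; edgeR adjusted p = 1.22e-05).

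KLF6, a widely expressed factor induced by injury and growth factors, stood at 81.7, 72.7 and 74.7 CPM with DMSO and at 155.7, 329.6 and 304.9 CPM in CCT068127 replicates 1 to 3. All treated libraries were higher, and replicate 1 stood between DMSO and the other treated libraries. The log2 fold change was 1.77 ± 0.25 (edgeR adjusted p = 0.000258).

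KLF7, which is known from neurons and adipocytes, stood at 22.3, 20 and 20 CPM with DMSO and at 36.1, 50.8 and 40.2 CPM in CCT068127. The arms did not overlap, and the log2 fold change was 0.98 ± 0.14 (edgeR adjusted p = 0.000104).

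KLF5 (chromosome 13, 73054976 to 73077542, GRCh38), which promotes growth of basal epithelial cells, showed the smallest change on counts, whereas KLF3 did on log2(TPM + 1) values. Its values were 110.5, 107.1 and 105.7 CPM with DMSO and 112.1, 154.2 and 145.3 CPM in CCT068127, so that treated replicate 1 was next to the DMSO libraries. It passed at 0.34 ± 0.12 (edgeR adjusted p = 0.0326), beside a median of -0.05 over all genes. With library totals it did not pass and stood at 0.02 (edgeR adjusted p = 0.877), beside a median of -0.36. On log2(TPM + 1) values it stood at -0.15 (limma adjusted p = 0.351), beside a median of -0.46. Its call was also lost when DMSO replicate 1, 2 or 3, or CCT068127 replicate 2 or 3, was left out (edgeR adjusted p from 0.0587 to 0.146), with 0.22 without CCT068127 replicate 2.

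KLF4 (chromosome 9, 107484852 to 107490482), known for growth arrest of differentiating epithelial cells and as a reprogramming factor, was the only activating member of the list to fall. It stood at 48.4, 46.9 and 49.4 CPM with DMSO and at 23.6, 33.7 and 27.5 CPM in CCT068127, with no overlap. The log2 fold change was -0.81 ± 0.13 (edgeR adjusted p = 0.000298) on counts, beside a median of -0.05 over all genes. On log2(TPM + 1) values it was -1.23, beside a median of -0.46.

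**Figure D3:**
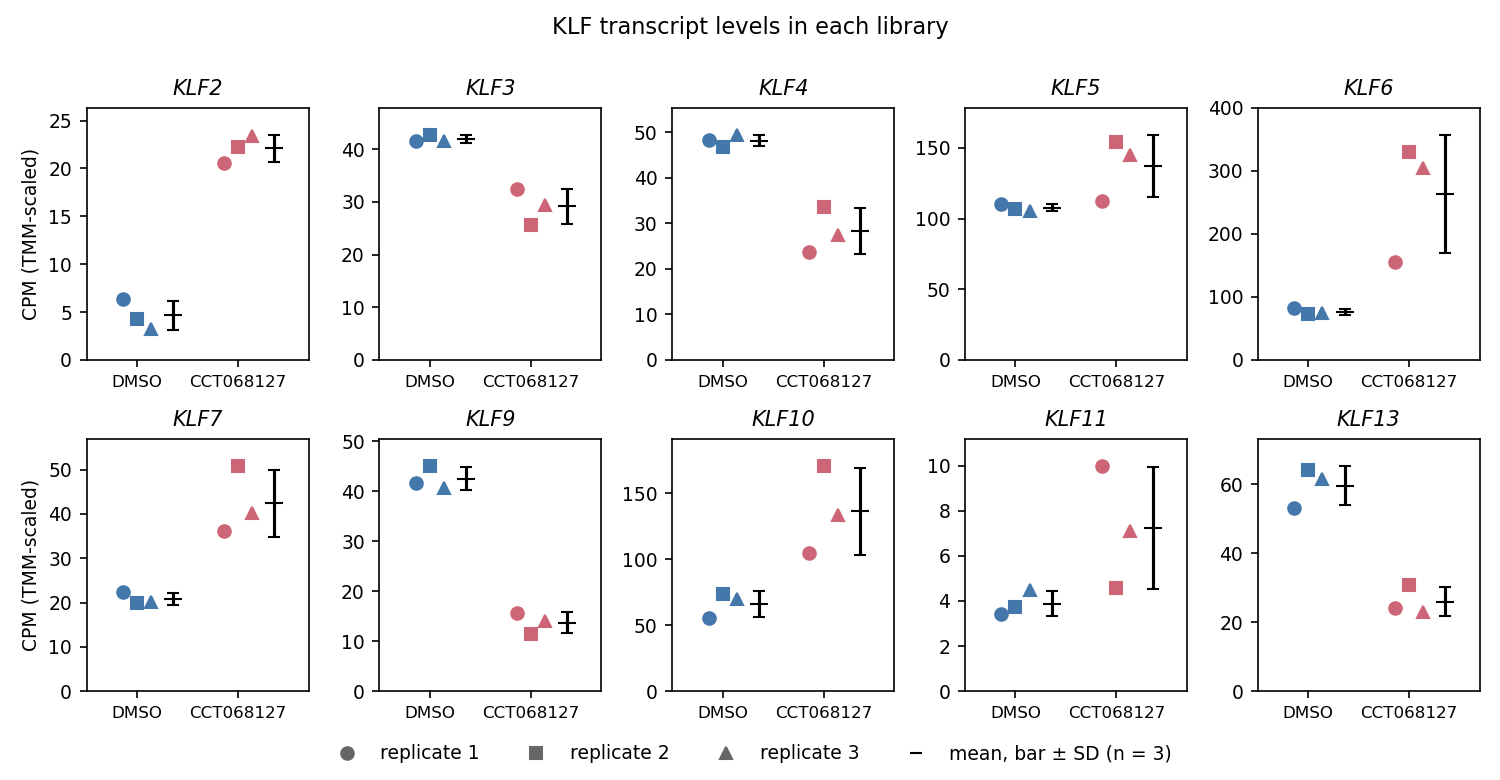
TMM-scaled CPM (y axis, from 0) of the 10 KLFs in each library of DMSO (blue) and CCT068127 (red), with marker shapes for replicates and the mean ± SD (n = 3) beside them. KLF2, KLF6, KLF7 and KLF10 lie higher and KLF3, KLF4, KLF9 and KLF13 lower in all treated libraries. The DMSO and treated libraries of KLF5 and KLF11 come close to each other.

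Of the SIN3A-binding members, KLF10 and KLF11, both known as early genes of the TGF-beta response, were higher. KLF10 (chromosome 8, 102648779 to 102655902) stood at 55.2, 73.6 and 70.2 CPM with DMSO and at 104.7, 170.8 and 133.7 CPM in CCT068127. The arms did not overlap, with a log2 change of 1.02 ± 0.17 (edgeR adjusted p = 0.000461). KLF11 (chromosome 2, 10042849 to 10054836) was the rarest member, at 3.41, 3.72 and 4.48 CPM with DMSO and 9.99, 4.57 and 7.1 CPM in CCT068127, where replicate 2 held 8 counts and lay next to DMSO replicate 3. Its log2 fold change was 1.05 ± 0.26 (edgeR adjusted p = 0.00451). It was 0.71 without CCT068127 replicate 1 (edgeR adjusted p = 0.0599) and 0.25 on log2(TPM + 1) values (limma adjusted p = 0.337), with no call in either. On log2(TPM + 1) values the median of all genes was -0.46. GENCODE 29 places the antisense gene AC104794.4 over 416 bases of KLF11. Without a stated strand setting, reads of the pair cannot be told apart.

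KLF9, a target of glucocorticoid and thyroid hormone receptors, fell most. Its values were 41.7, 45.1 and 40.8 CPM with DMSO and 15.7, 11.4 and 14 CPM in CCT068127. The highest treated library was thus well below the lowest DMSO library, at a log2 change of -1.59 ± 0.13 (edgeR adjusted p = 2.81e-06), or 3.01-fold lower.

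KLF13, its close relative, which is known from T cells and from cholesterol and steroid metabolism, moved the same way. It stood at 53.2, 64.2 and 61.5 CPM with DMSO and at 24.1, 30.9 and 23 CPM in CCT068127. The arms did not overlap, with a log2 change of -1.24 ± 0.14 (edgeR adjusted p = 2.18e-05).

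The sequence before the start site is shown for the members with the largest rises (KLF2, KLF6) and falls (KLF9, KLF13), from RefSeq on GRCh38.p14, 5′ to 3′ on the gene's strand. Capitals mark GC boxes (GGGCGG, which KLF and SP factors bind), CCAAT boxes (CCAAT) and a MEF2 site, searched on both strands. Each stretch ends at the start site or, where GENCODE 29 begins the gene further upstream, before that.
KLF2 (chr19:16324576-16324816, plus strand): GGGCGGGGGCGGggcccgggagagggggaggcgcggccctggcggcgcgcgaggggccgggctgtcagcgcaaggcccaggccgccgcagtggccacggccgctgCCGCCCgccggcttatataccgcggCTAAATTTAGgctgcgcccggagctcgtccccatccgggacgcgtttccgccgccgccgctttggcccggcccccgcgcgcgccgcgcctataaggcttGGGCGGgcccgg
KLF6 (chr10:3785282-3785459, minus strand): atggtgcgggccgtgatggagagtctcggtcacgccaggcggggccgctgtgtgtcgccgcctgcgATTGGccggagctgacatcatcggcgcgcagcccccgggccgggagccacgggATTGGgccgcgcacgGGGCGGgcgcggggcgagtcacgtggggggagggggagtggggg
KLF9 (chr9:70414658-70414907, minus strand): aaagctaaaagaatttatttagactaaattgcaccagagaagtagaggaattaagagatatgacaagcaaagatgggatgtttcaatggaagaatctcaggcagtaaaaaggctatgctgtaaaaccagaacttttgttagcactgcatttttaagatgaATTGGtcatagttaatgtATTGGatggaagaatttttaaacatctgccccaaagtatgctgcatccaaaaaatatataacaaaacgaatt
KLF13 (chr15:31326585-31326834, plus strand): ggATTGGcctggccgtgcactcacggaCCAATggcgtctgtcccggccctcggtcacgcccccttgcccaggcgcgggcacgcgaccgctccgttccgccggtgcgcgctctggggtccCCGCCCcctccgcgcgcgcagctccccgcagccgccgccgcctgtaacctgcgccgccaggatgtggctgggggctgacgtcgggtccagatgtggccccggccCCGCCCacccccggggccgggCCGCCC
The KLF2 stretch had 4 GC boxes, 1 MEF2 site and a GC content of 79.3%, and KLF13 had 3 GC boxes, 2 CCAAT boxes and 78.8%. KLF6 had 1 GC box and 2 CCAAT boxes at 76.4%. KLF9 had 2 CCAAT boxes and no GC box, at a GC content of 32.4%, beside a median of 58% over 35116 promoter windows of 250 bases. A GC box was found in 42.6% of those windows, a CCAAT box in 32% and a MEF2 site in 0.515%. The 8 members with an entry had 13 windows, of which 8 held a GC box, 6 a CCAAT box and 1, that of KLF2, a MEF2 site. These matches describe letters, not binding.

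KLF3 (chromosome 4, 38664196 to 38701042), the CtBP-binding member, gave different answers in its 2 deposited values. Its counts stood at 41.6, 42.8 and 41.5 CPM with DMSO and at 32.4, 25.7 and 29.3 CPM in CCT068127. They did not overlap and fell by 0.50 ± 0.12 on the log2 scale (edgeR adjusted p = 0.00305). Its TPM were 18.1, 18.2 and 16.6 in DMSO and 19.8, 14.1 and 16 in CCT068127, which overlapped. The log2(TPM + 1) difference was -0.09 ± 0.14 (limma adjusted p = 0.565). The median of all genes was -0.46 on that scale and -0.05 on counts. KLF3 thus lay above the median gene on TPM and below it on counts. With DMSO replicate 3 as the only control the counts stood at -0.52 without a call (edgeR adjusted p = 0.0804).

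A gene's estimated count per TPM, relative to other genes of the library, follows the mean effective transcript length that the quantification assigned to it. For KLF3, log2 count per TPM, with the library median at 0, was 0.68, 0.68 and 0.80 in DMSO and -0.32, -0.12 and -0.12 in CCT068127 replicates 1 to 3. The shift was -0.91 ± 0.07 (limma adjusted p = 0.00459 over 10496 genes), so that each TPM of KLF3 carried 1.87-fold fewer counts in treated cells. DMSO replicate 3, with 278 KLF3 counts, gave the same sign and size as the deep DMSO libraries. With it as the sole control the shift was -0.99 (limma adjusted p = 0.186). Of 10496 genes 8.36% passed this test, 3.6% as lower and 4.75% as higher. KLF3 was the member among 9 with enough counts that passed, and the shifts of the other 8 lay between -0.11 and 0.03. GENCODE 29 lists 2 coding KLF3 transcripts of 5122 and 1871 bases. The authors' annotation is unknown here, and which transcript changed was not tested. The antisense gene KLF3-AS1 overlaps 688 bases of KLF3. It held 71, 106 and 2 counts in DMSO replicates 1 to 3 and 0, 0 and 1 in CCT068127, where KLF3 held 17164, 19299 and 278 and then 159, 45 and 124. The part of antisense reads in the KLF3 values was not tested.

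**Figure D4:**
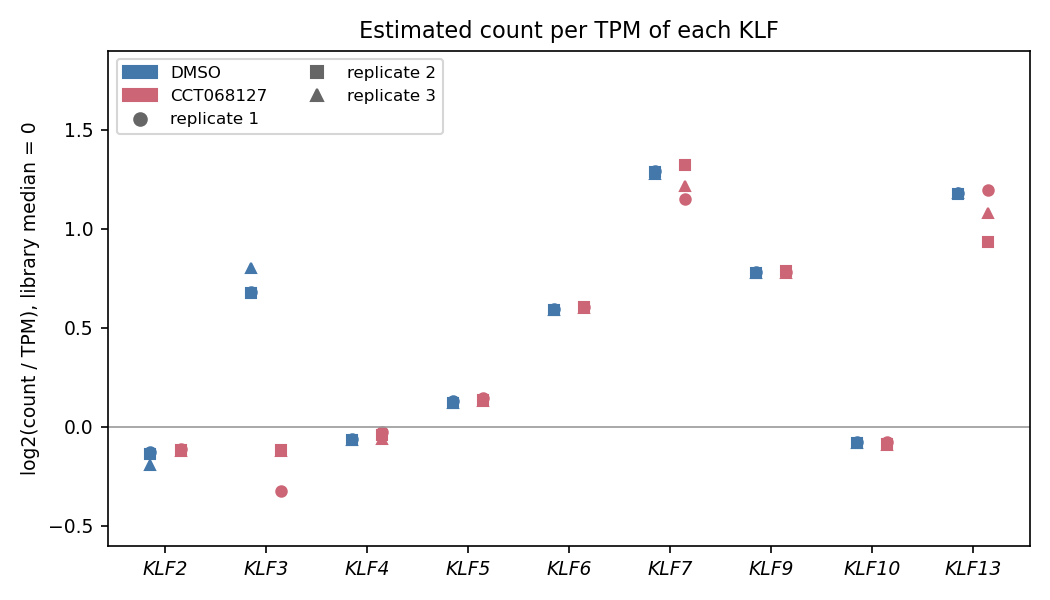
Log2 of estimated count per TPM (y axis, median of each library set to 0) for the 9 KLFs with at least 10 counts in every library, DMSO in blue and CCT068127 in red. KLF3 is the member whose DMSO libraries (0.68 to 0.80) and treated libraries (-0.32 to -0.12) stand far apart.

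Other KLF and SP genes were measured beside the members. Of 17 on the list 8 were tested, of which 2 (25%) rose and 4 (50%) fell. Over all genes 31.9% rose and 32.8% fell. The median log2 fold change was -0.70 beside -0.05 for all genes. KLF12, the CtBP-binding relative of KLF3, stood at 22.2, 21.7 and 20 CPM with DMSO and 9.58, 9.14 and 11.1 CPM in CCT068127 and fell by 1.09 on the log2 scale (edgeR adjusted p = 7.18e-05). KLF16, a SIN3A-binding member, rose by 0.62 (adjusted p = 0.00154), a call lost on log2(TPM + 1) values (0.11). SP1, the ubiquitous GC box activator, fell by 0.97, from 92.3 ± 2.69 to 47.7 ± 7.35 CPM (adjusted p = 4.45e-05), and SP2 fell by 0.92. SP9 fell by 1.56, from 2.15 to 0.71 CPM, with 3, 1 and 4 counts in the treated libraries. Its call was lost with DMSO replicate 3 as the only control (-1.51, edgeR adjusted p = 0.151). SP6, an epithelial factor, rose by 1.06, from 1.28 to 3.03 CPM, with 6 counts each in DMSO replicate 3 and CCT068127 replicate 2. That call was lost in 6 of 18 alternatives, log2(TPM + 1) values among them. SP3 (-0.04, edgeR adjusted p = 0.778) and SP4 (-0.49, edgeR adjusted p = 0.079) did not pass. Both were lower on log2(TPM + 1) values (-0.60 and -0.81, limma adjusted p = 0.00702 and 0.0183), where the median of all genes was -0.46. They were also lower with library totals (-0.35 and -0.80, edgeR adjusted p = 0.0167 and 0.0085), where that median was -0.36. KLF1, KLF8, KLF14, KLF15, KLF17, KLF18, SP5, SP7 and SP8 were too low to test.

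The genes known to act upstream of these factors were read from lists, whose counts stand beside 31.9% higher, 32.8% lower and a median log2 fold change of -0.05 over all genes. The kinase route from MEKK3 through MEK5 to ERK5 activates MEF2 factors, which in turn switch on KLF2 and KLF4. Among its 6 tested genes 0 passed as higher and 2 as lower (median log2 fold change -0.02). MAP2K5, which encodes MEK5, stood at 38.1, 36.1 and 37.2 CPM with DMSO and 17.7, 16 and 11.6 CPM in CCT068127 (log2 fold change -1.30, edgeR adjusted p = 3.04e-05). MEF2A fell by 0.71, and the ERK5 gene MAPK7 (-0.04, adjusted p = 0.816) did not pass. On log2(TPM + 1) values MAPK7 was lower (-0.47, limma adjusted p = 0.00599), but the median of all genes there was -0.46, so it moved like a typical gene.

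Serum response factor and its partners drive immediate early genes. Of 9 genes for these factors and early genes 4 rose and 2 fell (median 0.12). The gene of the factor itself, SRF, did not pass (0.06, edgeR adjusted p = 0.713). FOS (4.19), JUN (1.39) and ELK3 (1.36) rose, and the SRF coactivator gene MRTFB fell by 1.37. EGR1, an early zinc finger gene on the same list, was at 49.6, 76.1 and 79.9 CPM with DMSO and 235.8, 538.1 and 426.5 CPM in CCT068127. Its treated replicate 1 was the lowest of the treated libraries, as it was for KLF2, KLF4, KLF5, KLF6, KLF7 and KLF10, and it was the highest for KLF3, KLF9 and KLF11.

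TGF-beta, whose SMAD signal induces KLF10 and KLF11, was covered by 8 tested genes, of which 3 rose and 3 fell (median 0.00). The receptor genes TGFBR1 (-1.43) and TGFBR2 (-0.97) were lower. SMAD3 (0.44), SMAD2 (0.28) and TGFB1 (0.31) rose on counts. On log2(TPM + 1) values they stood at -0.06, -0.63 and -0.22, beside a median of -0.46 over all genes. With library totals SMAD2 and TGFB1 stood at -0.03 and -0.01, beside a median of -0.36. SMAD7, an inhibitory SMAD gene that KLF10 is known to repress, stood at 0.24 (edgeR adjusted p = 0.207).

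KLF9 is a target of the glucocorticoid receptor, and KLF9 and KLF10 are tied to the circadian clock. Of 12 genes of the receptor and the clock 4 rose and 5 fell (median -0.01). NR3C1, the receptor gene, stood at 128.9, 142.4 and 149.5 CPM with DMSO and 54.6, 76.5 and 73.4 CPM in CCT068127, a log2 change of -1.06 (edgeR adjusted p = 5.78e-05). The clock output gene DBP fell by 1.37 and CLOCK by 0.82, and NR1D1, a clock repressor gene, rose by 1.00. Other glucocorticoid-responsive genes moved apart, with TSC22D3 at -0.41 and FKBP5 at 0.98. The call of FKBP5 was lost on log2(TPM + 1) values (0.34), and that of TSC22D3 when DMSO replicate 1 (-0.31) or CCT068127 replicate 3 (-0.44) was left out.

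Of 11 genes for corepressors and coactivators that KLFs recruit, 1 (9.09%) rose and 6 (54.5%) fell, with a median of -0.46, beside 31.9% higher, 32.8% lower and a median of -0.05 over all genes. SIN3A, which KLF9, KLF10, KLF11 and KLF13 bind, fell by 0.64, SIN3B by 0.61 and the acetyltransferase gene EP300 by 0.87 on the log2 scale. HDAC1, the deacetylase gene of SIN3 complexes, rose by 0.67, a call lost on log2(TPM + 1) values (0.19). CTBP1, the corepressor gene of the KLF3 group, stood at -0.48 (edgeR adjusted p = 0.00216) and CTBP2 at -0.19 (edgeR adjusted p = 0.101). CTBP2 was lower on log2(TPM + 1) values (limma adjusted p = 0.000261), where the median of all genes was -0.46.

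Several ubiquitin ligases are known to mark KLF proteins for decay, so transcript levels need not follow protein levels, which were not measured. Of 9 genes on the list for KLF protein turnover 3 (33.3%) rose and 3 (33.3%) fell (median -0.20). Over all genes 31.9% rose and 32.8% fell, so the counts do not set this list apart. SMURF2 stood at 114.7, 96.2 and 93.2 CPM with DMSO and 225.4, 282.8 and 238.1 CPM in CCT068127, a log2 change of 1.28 (edgeR adjusted p = 6.61e-06). SMURF1, a ligase for KLF2, rose by 0.72, a call lost on log2(TPM + 1) values. FBXW7, a ligase for KLF5 and KLF2, rose by 0.58 but stood at -0.02 on log2(TPM + 1) values, beside a median of -0.46 over all genes. WWP1, another KLF5 ligase gene, fell by 0.86.

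Of 20 tested genes reported elsewhere as KLF targets 8 (40%) rose and 6 (30%) fell, with a median of -0.01. Over all genes 31.9% rose and 32.8% fell, so the counts do not set these targets apart. THBD, the thrombomodulin gene that KLF2 and KLF4 are known to activate, stood at 21.8, 18.4 and 17.2 CPM with DMSO and 83.8, 66.3 and 80 CPM in CCT068127, a log2 change of 2.0 (edgeR adjusted p = 4.88e-07). CDKN1C, which encodes the kinase inhibitor p57, rose by 4.32, and TAGLN, a contractile gene to which KLF4 and KLF5 bind, by 3.46. TGFBR1, which KLF6 is known to activate, fell by 1.43. CDKN1A, the p21 gene that KLF4 and KLF6 activate, stood at 69.6 ± 9.02 CPM with DMSO and 65.9 ± 10.3 CPM in CCT068127 (-0.06, edgeR adjusted p = 0.709). It was lower on log2(TPM + 1) values (-0.62, limma adjusted p = 0.00682), where the median of all genes was -0.46. LGALS3, which KLF3 is known to repress, stood at -1.01 (adjusted p = 4.07e-05).

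KLF5 works beside other transcription factors of the urothelium, and 7 of these 10 genes were high enough to test. All 7 fell, with a median of -1.16, beside 32.8% of all genes lower on counts and 51.9% on log2(TPM + 1) values. GATA3 fell by 2.18, IRF1 by 1.51 and RXRA by 1.16 on the log2 scale.

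Of the epithelial markers 4 of 5 tested genes rose on counts, beside 31.9% of all genes. They were led by the keratin genes KRT8 (1.79), KRT19 (1.02) and KRT7 (0.88) on the log2 scale. KRT19 and KRT7 each lost the call in 1 of 18 alternatives. KRT18 passed at 0.43 (edgeR adjusted p = 0.0276), but its CPM overlapped between the arms. Its mean TPM was 1148 with DMSO and 1100 in CCT068127. The mesenchymal trait genes VIM (0.35, edgeR adjusted p = 0.0183) and CDH2 (0.27, edgeR adjusted p = 0.042) also passed as higher. On log2(TPM + 1) values they stood at -0.13 and -0.17, beside a median of -0.46 over all genes. With library totals CDH2 stood at -0.04, beside a median of -0.36. The call of VIM was also lost without DMSO replicate 2 or 3 or CCT068127 replicate 1 or 3 (0.23 without DMSO replicate 3), and that of CDH2 without any library but CCT068127 replicate 3 (0.16 without CCT068127 replicate 2). Of 4 tested markers of other cell types 2 fell, beside 32.8% of all genes. The endothelial gene PECAM1 fell by 1.23 and the monocyte gene CD14 by 0.94, with at most 12 counts of either in a treated library. The call of CD14 was lost when DMSO replicate 2 or 3 or CCT068127 replicate 1 or 2 was left out (-0.54 without CCT068127 replicate 1). The part of these shifts in the KLF results was not tested.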

How the data were processed

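The authors deposited a table of estimated counts by symbol, as whole numbers, and one of TPM. Per the submitters' processing notes RSEM, Bowtie and hg38 were used, with versions and annotation not given in the sources used here. Counts were tested in R 4.3.3 with edgeR 4.0.16: filterByExpr (minimum count 10), TMM scaling, a robust quasi-likelihood fit with treatment as its term, and Benjamini-Hochberg adjustment over 13597 genes. SEs were taken from the F statistic. Fold changes on TPM are on the log2(TPM + 1) scale (limma 3.58.1), which understates low genes. DESeq2 1.42.0 was an alternative. Log2 count per TPM was compared with limma, a step chosen after seeing the values. Samples were grouped by title. The members and lists were chosen with earlier results of these data known. Text names all members and all tested KLF and SP relatives. Per list it also names up to 3 called genes in the commoner direction and 1 in the other, by adjusted p. MAPK7, EGR1, TGFBR2, SMAD7, TSC22D3, FKBP5, CTBP1, CTBP2, CDKN1A and LGALS3 were added for a known tie to a member, after their values were seen. SRF and KRT18 were also added after their values were seen. The fit was tested on simulated data in which few genes changed. In the real data 64.7% of genes were called, a case that the simulation does not cover. No spike-in is named, so levels are relative. A comparison of KLF proteins was not run. No pair of replicates agreed within counting noise (chi-square per degree of freedom from 1.95 to 8.76, with the deep DMSO libraries thinned).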

Additional observations from a re-analysis of the deposited data

How the results depend on the processing

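KLF2, KLF4, KLF6, KLF7, KLF9 and KLF13 kept direction and call in all 18 alternatives. KLF3 lost its call on log2(TPM + 1) with a filter and without one (-0.094 each), on log2(TPM + 0.1) (-0.10) and with DMSO replicate 3 as the only control (-0.52). KLF5 reversed on log2(TPM + 1), filtered or not (-0.15), and on log2(TPM + 0.1) (-0.15). It lost its call with library totals (0.023), without a low-count filter (0.10), with DMSO replicate 3 as the only control (0.34) and in 5 fits that left out a library (0.22 to 0.44 over all 6). KLF10 lost its call on unfiltered log2(TPM + 1) (0.54). KLF11 lost it on log2(TPM + 1), filtered or not (0.25), on log2(TPM + 0.1) (0.33), with DMSO replicate 3 as the only control (0.74) and without CCT068127 replicate 1 (0.71 to 1.18 over the fits that left out a library). Unfiltered log2(TPM + 1) left 3 members higher. With DMSO replicate 3 as the only control its spread was taken to be that of the treated libraries. For fits with fewer libraries the loss follows a change in the samples used; for the others the cause was not tested.

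The median log2 change of all genes was -0.36 with library totals, -0.49 without a low-count filter and -0.46 on log2(TPM + 1). Over all genes, log2(TPM + 1) gave 2474 higher and 7472 lower, log2(TPM + 0.1) 2444 and 7299, and unfiltered log2(TPM + 1) 7365 lower, with 2740 lower when DMSO replicate 3 was the only control and 2999 higher and 6581 lower with library totals. Leaving out a library gave 3848 to 4464 higher and 3888 to 4800 lower.

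Among the lists, the other KLF and SP genes had 1 higher with library totals or DMSO replicate 3 as the only control, 0 on the 3 TPM fits and 7 lower on unfiltered TPM. The MEK5 route had 4 lower with library totals and on the TPM fits, and the serum response route 5 lower on the TPM fits. The TGF-beta list had 0 higher with library totals, without a low-count filter, with DMSO replicate 3 as the only control and on the TPM fits, which gave 5 lower. The receptor and clock list had 2 higher on filtered and 1 on unfiltered TPM, and 3 lower with DMSO replicate 3 as the only control. Cofactors had 2 higher with DESeq2 and 0 on the TPM fits. Turnover genes had 1 higher on the TPM fits, and 6 lower there and with library totals, and 5 without a low-count filter. Reported targets had 5 higher and 10 lower with library totals, and 4 (5 unfiltered) higher and 10 lower on the TPM fits. Leaving out a library gave 1 to 2 higher among the other KLF and SP genes and in the TGF-beta list. Signs changed for SP3 without CCT068127 replicate 1 (0.022, against -0.13 without CCT068127 replicate 2), SMAD3 (-0.058, or -0.059 on log2(TPM + 0.1)), SMAD2 (-0.63, or -0.69 on log2(TPM + 0.1)), TGFB1 (-0.22) and FBXW7 (-0.025, or -0.036 on log2(TPM + 0.1)) on the TPM fits, and for SMAD2 (-0.030) and TGFB1 (-0.010) with library totals. MAPK7 stood at 0.0020 with DESeq2 size factors, 8e-04 with DESeq2, 0.040 with DMSO replicate 3 as the only control and -0.15 to 0.035 without a library. SMAD7 stood at -0.074 with library totals, -0.012 without a low-count filter, -0.16 on log2(TPM + 1), filtered or not, and -0.17 on log2(TPM + 0.1). VIM stood at -0.13 on the TPM fits, and CDH2 at -0.044 with library totals, -0.17 on log2(TPM + 1) and -0.18 on log2(TPM + 0.1). CDKN1A stood at 0.013 with DMSO replicate 3 as the only control and -0.19 to 0.032 without a library.

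The replicate block left 6 members higher and 4 lower and gave 4107 genes higher and 4190 lower. Same-numbered libraries did not deviate together (r = 0.05, 0.00 and 0.04), and not every library matched its own number best. The KLF3 shift in count per TPM was -0.99 with DMSO replicate 3 as the only control, with no call, and -0.94 to -0.84 when a library was left out.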

Other observations

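Ratios of members within a library do not depend on how libraries are scaled, and 4 pairs were chosen after their values were seen, so no test is given. The TPM ratio of KLF2 to KLF4, which share upstream control by ERK5 and MEF2 factors, was 0.137, 0.0965 and 0.0725 in DMSO and 0.923, 0.696 and 0.889 in CCT068127 replicates 1 to 3. KLF4 was thus far above KLF2 in each DMSO library and close to it in each treated library. The ratio of KLF10 to KLF9, both SIN3A-binding, was 2.4, 2.96 and 3.12 in DMSO and 12.1, 27.4 and 17.5 in CCT068127. KLF6 to KLF5 went from 0.535, 0.492 and 0.51 in DMSO to 1.01, 1.55 and 1.52 in CCT068127. KLF11 to KLF13 went from 0.112, 0.1 and 0.129 in DMSO to 0.721, 0.22 and 0.493 in CCT068127. The libraries of the arms did not overlap in these 4 pairs, which were picked with their values known, so the separation is not a result of its own.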
